A study of Mus musculus with 11 samples.

Results

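The interferon-stimulated genes described here are 39 mouse genes whose transcription rises when a cell is exposed to interferon. They were taken as those probesets of the array whose annotation names a single gene and whose gene is on the list. All 39 listed genes were measured, among 20352 genes in all, by 410 of 211507 probesets. A gene's level was the median of the log2 values of its probesets, from 1 probeset for Oas1g to 27 for Stat2, and no gene was removed for a low level.

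Expression was measured on 11 mouse arrays, 1 per tissue piece. The 5 keratoacanthomas, squamous tumours made of keratinocytes, were of K14-Cre;Zmiz1 double transgenic genotype. Normal skin was held by the other 6 arrays, of which 2 had that double transgenic genotype, 2 carried K14-Cre alone and 2 carried the Zmiz1 transgene alone. Array medians lay between 6.22 and 6.27 on the log2 scale. In K14-Cre mice the keratin 14 promoter drives Cre recombinase in basal keratinocytes, while the pieces hold every cell of the tissue. No age, sex or strain was given in the sources used here. Whether any pieces share an animal was not stated, and the p-values therefore measure the spread between these arrays, which may be technical.

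Interferons are secreted proteins that cells release on sensing viral or misplaced nucleic acid. Type I interferons bind a receptor of the chains Ifnar1 and Ifnar2, whose kinases activate a transcription factor complex that includes Stat2 and Irf9. That complex binds a short promoter element, the interferon-stimulated response element, and switches on genes that bind or degrade viral RNA, tag proteins with Isg15, hold budding virus at the membrane or sense more nucleic acid. Keratinocytes both make and answer type I interferons, and the response also appears in epidermis without a virus, as in lupus of the skin.

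Promoter sequences are shown because the pathway is known to act through one element there. RefSeq (build GRCm38.p6) gave a promoter, 250 bases before to 50 bases after the transcription start, for 30 of the 39 genes. The motif GAAANNGAAA, read on either strand and with overlapping matches counted separately, occurred in 14 of these 30 genes (46.7%), against 1079 of 27025 genes with a promoter (3.99%). A match describes the letters of the sequence and is not a measured binding site. The 5 promoters below are those of Isg15, Oas1a and Ifit1, which rose in the tumours, and of Ifit3 and Gbp2, which hold the motif and did not pass the test. Each is written 5′ to 3′ along the gene's strand, with matches to the motif in capitals. Isg15 lies at chr4:156200769-156201068 on the minus strand, Oas1a at chr5:120907476-120907775 on the minus strand, Ifit1 at chr19:34640639-34640938 on the plus strand, Ifit3 at chr19:34583279-34583578 on the plus strand and Gbp2 at chr3:142620413-142620712 on the plus strand.
Isg15: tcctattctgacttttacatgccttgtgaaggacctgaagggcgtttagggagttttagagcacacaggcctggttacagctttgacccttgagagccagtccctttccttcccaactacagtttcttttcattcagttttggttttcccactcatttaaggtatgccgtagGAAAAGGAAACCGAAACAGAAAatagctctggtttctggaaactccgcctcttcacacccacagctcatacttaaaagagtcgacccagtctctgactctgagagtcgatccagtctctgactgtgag
Oas1a: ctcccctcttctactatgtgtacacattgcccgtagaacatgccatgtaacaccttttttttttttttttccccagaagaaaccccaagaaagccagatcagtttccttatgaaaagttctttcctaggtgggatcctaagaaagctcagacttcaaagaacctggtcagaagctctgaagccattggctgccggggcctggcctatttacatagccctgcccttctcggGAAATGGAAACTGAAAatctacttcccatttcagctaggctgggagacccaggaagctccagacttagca
Ifit1: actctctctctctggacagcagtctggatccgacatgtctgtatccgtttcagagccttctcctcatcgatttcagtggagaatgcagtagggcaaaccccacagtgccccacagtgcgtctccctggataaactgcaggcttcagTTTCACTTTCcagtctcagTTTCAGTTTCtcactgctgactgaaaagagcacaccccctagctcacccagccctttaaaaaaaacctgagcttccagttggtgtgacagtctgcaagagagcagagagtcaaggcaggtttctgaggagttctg
Ifit3: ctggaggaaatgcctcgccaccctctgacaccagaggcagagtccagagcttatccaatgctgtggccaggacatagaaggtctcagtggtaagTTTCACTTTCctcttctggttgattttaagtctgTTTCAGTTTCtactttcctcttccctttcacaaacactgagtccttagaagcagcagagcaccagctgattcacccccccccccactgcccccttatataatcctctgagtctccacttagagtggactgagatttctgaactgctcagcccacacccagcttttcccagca
Gbp2: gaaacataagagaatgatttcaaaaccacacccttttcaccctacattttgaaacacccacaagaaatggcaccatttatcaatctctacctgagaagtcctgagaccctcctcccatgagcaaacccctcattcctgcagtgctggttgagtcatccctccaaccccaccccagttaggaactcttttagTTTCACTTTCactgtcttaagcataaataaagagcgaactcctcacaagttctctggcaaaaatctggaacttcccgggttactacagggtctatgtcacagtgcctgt
In Isg15, 3 overlapping matches began 78, 72 and 66 bases before the start. Oas1a held 2 overlapping matches beginning 20 and 14 bases before it, closer to the start than those of Isg15. Ifit1 held 2 separate matches at 104 and 85 bases, Ifit3 held 2 at 156 and 122 bases, and Gbp2 held 1 at 59 bases. Among the 22 genes that rose and have a promoter entry, 11 held the motif and 11 did not, Irf7, Ifi44 and Oasl2 being among those without a match in this window. The letters TTCNNNGAA, the element of the interferon gamma pathway, occurred in 7 of the 30 genes (23.3%) and in 9.55% of all genes.

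In keratoacanthoma most of the interferon-stimulated genes were higher than in normal skin and none was lower. By limma with Benjamini-Hochberg adjustment over all 20352 genes, 30 of the 39 (76.9%) rose at an adjusted p below 0.05, where 14.5% of all genes did, and 0 fell, where 10.8% of all genes did. Of the 39 log2 differences 35 were above 0, against 44.1% of all genes, and their median was 0.80 where that of all genes was -0.04. The differences ran from -0.30 for Gbp2 to 2.46 for Isg15. At least 2-fold higher and past the threshold were 15 of the 39, against 3.43% of all genes. In 23 of the 39 all 5 tumours stood above all 6 skins, an arrangement found in 9.66% of all genes, and in 0 of the 39 did all tumours stand below. In bulk tissue, fewer or more cells of a type and less or more RNA per cell cannot be told apart.

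**Figure D1:**
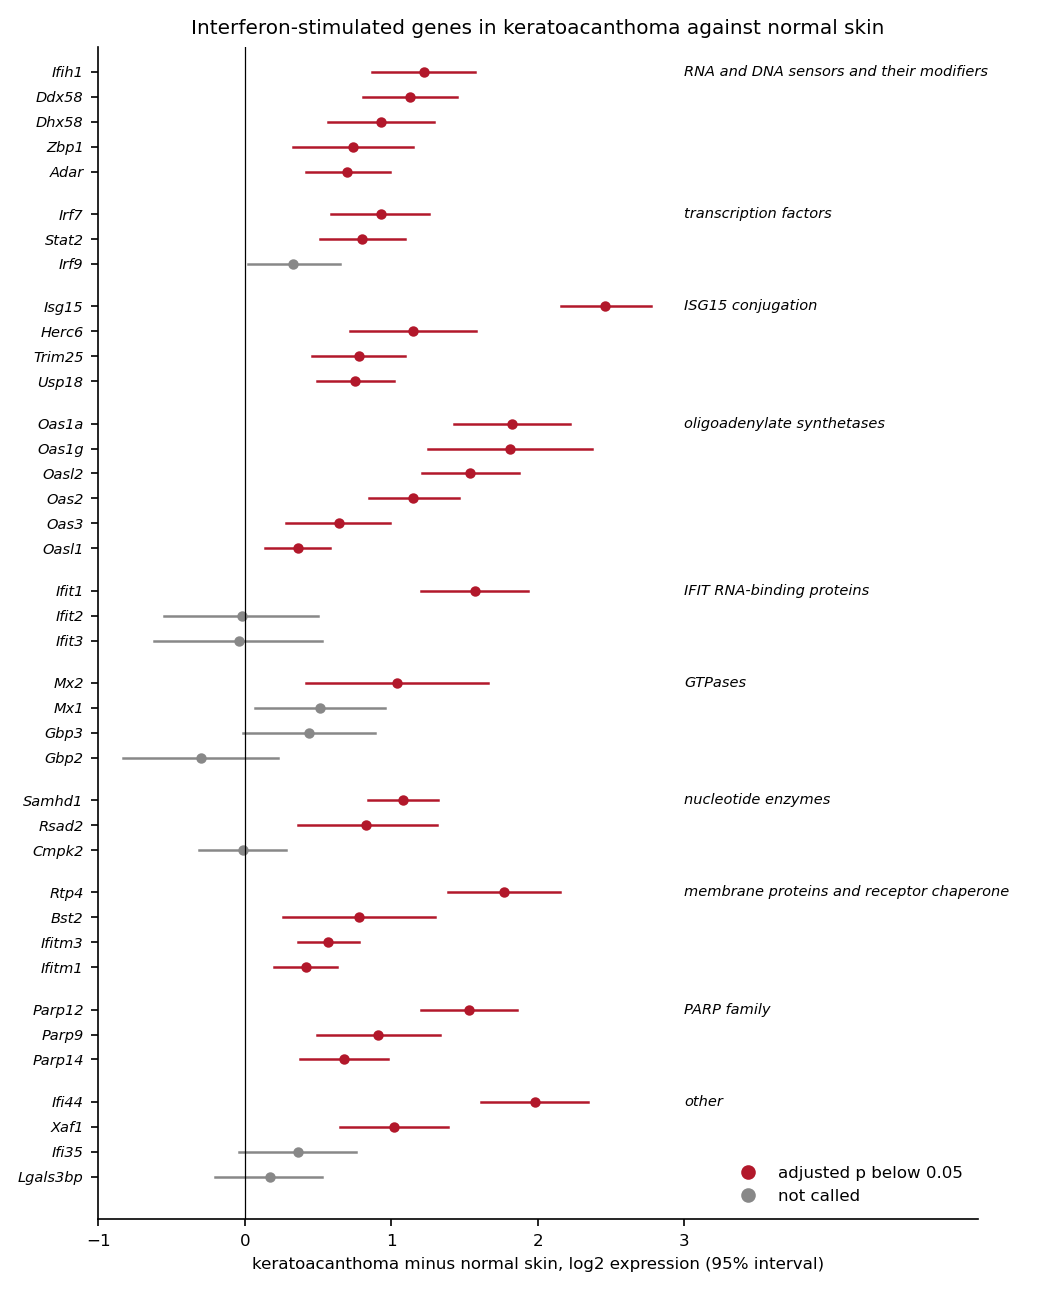
Log2 difference of keratoacanthoma (5 arrays) minus normal skin (6 arrays) for each of the 39 genes, ordered by role, with 95% intervals as bars. Red points mark the 30 genes at an adjusted p below 0.05, all on the right of 0, and Isg15 at 2.46 stands farthest out.

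The sensors of foreign nucleic acid and their modifiers all rose, 5 of 5. Ddx58, which encodes the RNA sensor RIG-I, stood at 7.73, 8.01, 8.11, 7.62 and 7.85 in the 5 keratoacanthomas, against a lowest value of 6.32, a median of 6.77 and a highest of 7.06 in normal skin. Every tumour was above every skin, and the log2 difference was 1.13 (SE 0.15, 2.19-fold, limma adjusted p = 0.00016). Ifih1, the long-RNA sensor MDA5, averaged 8.27 ± 0.25 (SD, n = 5) in keratoacanthoma and 7.06 ± 0.31 (n = 6) in skin, a difference of 1.22 with the same adjusted p. Dhx58, the related protein LGP2 that modulates those sensors, rose by 0.93 (adjusted p = 0.0013). Zbp1, which senses left-handed nucleic acid, rose by 0.74 (adjusted p = 0.012). Adar, which edits double-stranded RNA and so keeps a cell's own RNA from being sensed, rose by 0.70 (adjusted p = 0.0018).

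Among the transcription factors of the pathway, Irf7 and Stat2 rose and Irf9 did not pass the test. Irf7, which drives the interferon genes themselves and amplifies the response, stood at 6.46, 6.77, 6.60, 6.22 and 6.72 in keratoacanthoma, against 5.19, 5.63 and 6.05 as the lowest, median and highest values in normal skin. The groups did not overlap, and the log2 difference was 0.93 (SE 0.15, adjusted p = 0.00079). Without dim probesets, those below the 25th percentile of all probesets, it was 0.39 (adjusted p = 0.26). Stat2 stood at 7.65, 7.34, 7.75, 7.57 and 7.08 in keratoacanthoma, against 6.53, 6.62 and 6.98 in normal skin. Here too the groups were apart, with a difference of 0.80 (SE 0.13, adjusted p = 0.00078). For Irf9, its DNA-binding partner, the tumour values were 7.12, 7.76, 7.24, 7.28 and 6.82, against 6.77, 6.87 and 7.13 in skin. Keratoacanthoma 5 lay within the range of the skins and keratoacanthoma 1 just below their highest, and the difference of 0.33 (SE 0.14) had an adjusted p of 0.11. With the mean over its 11 probesets in place of the median, Irf9 differed by 0.57 (adjusted p = 0.0011), and without keratoacanthoma 5 by 0.44 (adjusted p = 0.038).

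The 4 listed genes tied to Isg15 conjugation rose, 4 of 4. Isg15 encodes a ubiquitin-like protein that is attached to other proteins. Its levels were 9.03, 9.37, 9.23, 8.98 and 8.75 in keratoacanthoma, against 6.33, 6.59 and 6.89 as the lowest, median and highest in normal skin. The lowest tumour stood well above the highest skin. With a log2 difference of 2.46 (SE 0.14, 95% interval 2.16 to 2.77, 5.52-fold, limma adjusted p = 2.2e-07, two-sided exact permutation p = 0.0043), Isg15 had the smallest p of the 39 and the 16th smallest of all genes. An exact p of 0.0043 is the lowest that 5 arrays against 6 can give. The size of this difference and its rank by p rested on how probesets were summarised. The 3 probesets of Isg15 differed by 1.31, 1.33 and 3.40, all past the threshold. In the 5 tumours and 1 skin the middle value came from the probeset that differed by 3.40, and in the other 5 skins it came from the probeset that differed by 1.31. With the mean over probesets the difference was 2.01 (4.04-fold, adjusted p = 2.8e-05). By that mean several of the 39 had a smaller adjusted p than Isg15. Among them were Oas1a, at 1.97 (adjusted p = 5.2e-06), and Ifi44, at 1.98 (adjusted p = 1.6e-05). Beside Isg15, the gene median and the median of the probesets' own differences were more than 0.5 apart in 2 of the 39 genes, Parp12 and Ifi35.

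The other genes of this group are a protease and ligases. Usp18, the protease that removes Isg15 and also dampens the type I receptor, stood at 6.91, 7.26, 7.22, 7.01 and 6.75 in keratoacanthoma, against 6.05, 6.35 and 6.42 in normal skin. All tumours were above all skins, and the log2 difference was 0.75 (SE 0.12, adjusted p = 0.00068). Herc6, the ligase that attaches Isg15 in the mouse, rose by 1.15 (adjusted p = 0.001). Of its 26 probesets 5 were called higher, and the mean over them gave 0.78 (1.72-fold, adjusted p = 0.0015). Trim25, a ubiquitin ligase that acts on RIG-I, rose by 0.78 (adjusted p = 0.0017), and by 0.27 (adjusted p = 0.33) without dim probesets.

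All 6 genes of the oligoadenylate synthetase family rose, with a median log2 difference of 1.35, the highest of the 10 role groups. These enzymes make a short oligonucleotide that activates an RNA-degrading enzyme when they meet double-stranded RNA, and the 2 Oas-like genes of the mouse carry the same fold with ubiquitin-like domains. Oas1a stood at 7.52, 7.99, 7.87, 8.18 and 7.82 in keratoacanthoma, against 5.64, 6.04 and 6.75 as the lowest, median and highest in normal skin. The groups were apart, with a difference of 1.82 (SE 0.18, 3.54-fold, adjusted p = 2e-05). Oasl2 stood at 7.82, 7.89, 7.97, 7.72 and 7.42 in keratoacanthoma, against 5.76, 6.23 and 6.60 in normal skin, a difference of 1.54 (SE 0.15, 2.91-fold, adjusted p = 1.7e-05). Oas2 stood at 7.62, 7.76, 8.08, 7.78 and 7.61 in keratoacanthoma, against 6.18, 6.62 and 7.02 in normal skin, a difference of 1.15 (SE 0.14, 2.23-fold, adjusted p = 9.1e-05). In each of these genes the lowest tumour was above the highest skin. Oas1g rose by 1.81 (adjusted p = 0.00029), Oas3 by 0.64 (adjusted p = 0.012), with normal skin 5 far below the other skins at 4.94, and Oasl1 by 0.36 (adjusted p = 0.021). Oasl1 differed by 0.29 (adjusted p = 0.054) without keratoacanthoma 4.

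Oas1a and Oas1g are closely related copies, so that the signal of either may hold some of the other. Their promoters were identical at 261 of 306 aligned positions (85.3%). The gene levels above used only probesets naming 1 gene, 4 for Oas1a and 1 for Oas1g. Another 8 probesets name both genes and averaged 8.50 ± 0.24 (SD, n = 5) in the tumours and 6.50 ± 0.45 (SD, n = 6) in the skins. Their differences ran from 0.66 to 3.56, with all tumours above all skins in 7 of the 8.

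The IFIT genes, which sit side by side on chromosome 19 and encode proteins that bind viral RNA, did not move together. Ifit1 stood at 6.80, 7.85, 7.53, 7.37 and 7.18 in keratoacanthoma, against 5.46, 5.82 and 6.04 in normal skin. Every tumour was above every skin, and the log2 difference was 1.57 (SE 0.17, 2.97-fold, adjusted p = 3.6e-05). Ifit3 stood at 7.09, 8.76, 8.31, 7.97 and 7.40 in keratoacanthoma, against 7.50, 7.97 and 8.30 in normal skin. Keratoacanthomas 1 and 5 lay below the lowest skin and keratoacanthomas 2 and 3 above the highest, so that the tumours spread to either side, and the difference was -0.04 (95% interval -0.62 to 0.53, adjusted p = 0.92). Ifit2 stood at 4.82, 6.45, 5.86, 5.60 and 5.36 in keratoacanthoma, against 5.23, 5.63 and 5.95 in normal skin. Keratoacanthoma 1 lay below all skins, keratoacanthoma 2 above them and the other 3 among them, with a difference of -0.02 (95% interval -0.55 to 0.50, adjusted p = 0.96). The order of the tumours was the same in all 3 genes, with keratoacanthoma 2 highest and keratoacanthoma 1 lowest. The signs of Ifit2 and Ifit3 turned with centring of the arrays (0.04 and 0.02) and under other settings, so that no direction can be given for either. The difference between Ifit1 and its neighbours was not tested.

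**Figure D2:**
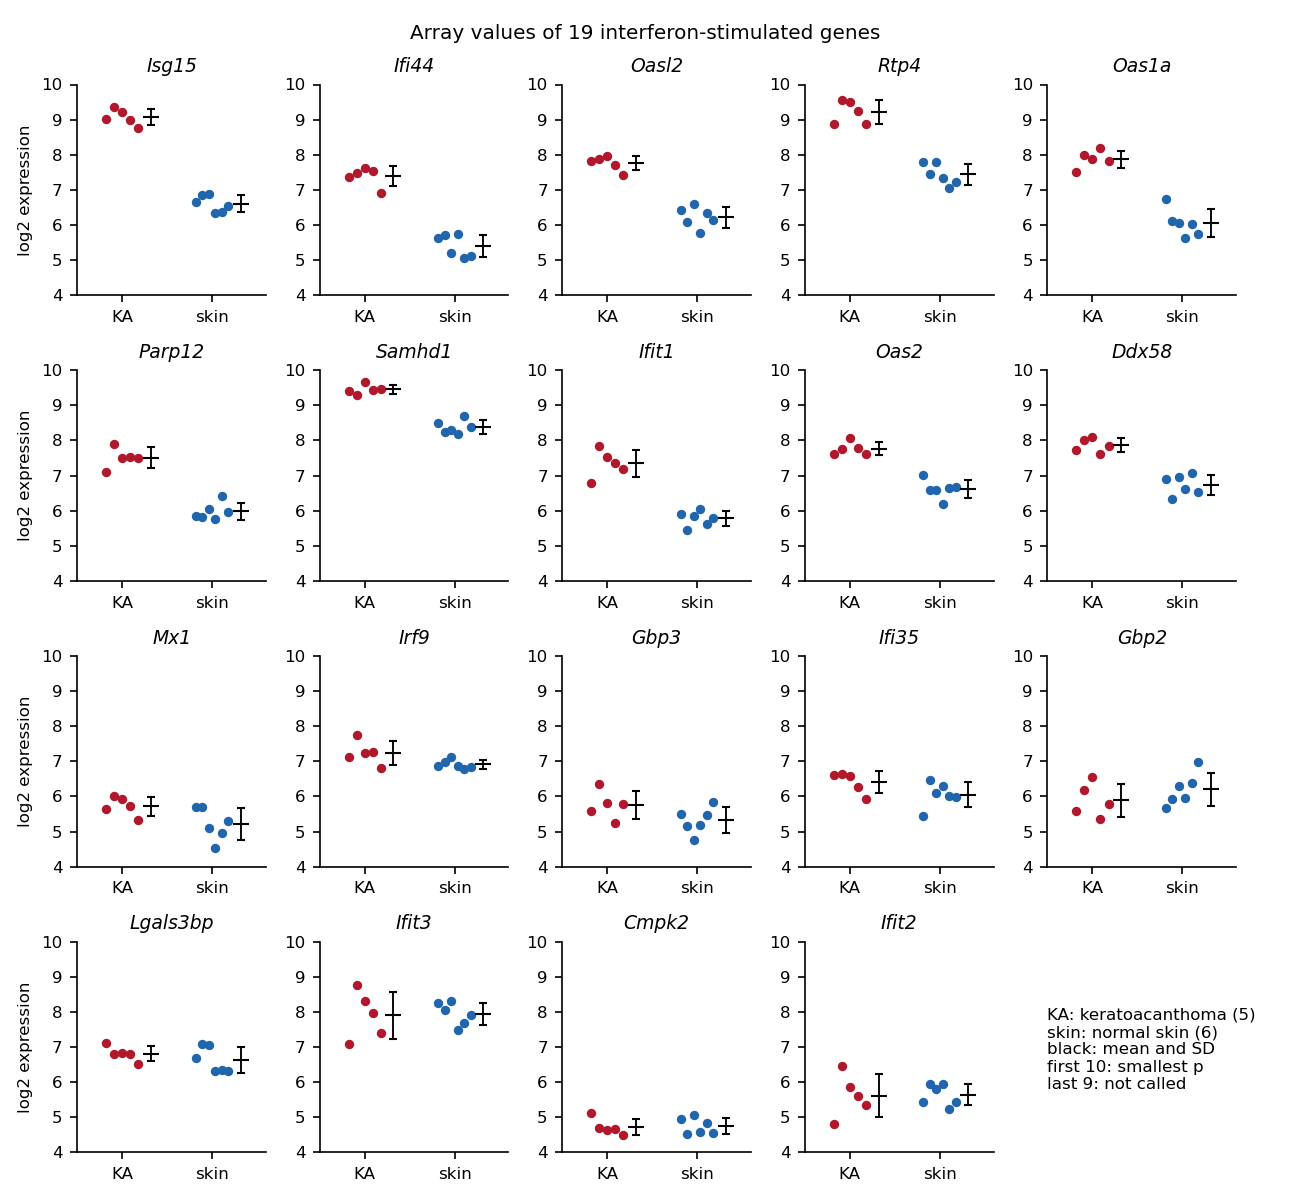
Log2 expression in each array of 19 genes, the 10 with the smallest p and then the 9 that did not pass the test, with keratoacanthoma in red on the left and normal skin in blue on the right of each panel and the mean and SD in black. The groups are apart in the first 10 panels, Isg15 to Ddx58, and overlap in the last 9.

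Of the 4 interferon-induced GTPases 1 rose. Mx2, a dynamin-like protein that blocks viruses, stood at 6.59, 6.66, 6.41, 6.28 and 5.93 in keratoacanthoma, against 4.49, 5.40 and 6.10 as the lowest, median and highest in normal skin. Its difference was 1.04 (SE 0.29, adjusted p = 0.018), with keratoacanthoma 5 below the highest skin. Mx1, its paralog, stood at 5.63, 6.00, 5.93, 5.74 and 5.32 in keratoacanthoma, against 4.54, 5.20 and 5.71 in normal skin. Only 3 tumours were above all skins, and the difference of 0.51 had an adjusted p of 0.088. With the mean over its 10 probesets Mx1 differed by 0.78 (adjusted p = 0.0081), and with the 4 single transgenic skins as the only controls by 0.75 (adjusted p = 0.011). Against double transgenic skin, the tumours' own genotype, it differed by 0.03 (adjusted p = 0.94).

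The guanylate-binding proteins, which coat vacuoles of intracellular microbes and respond to interferon gamma as well, did not pass the test. Gbp3 stood at 5.59, 6.35, 5.82, 5.25 and 5.79 in keratoacanthoma, against 4.76, 5.33 and 5.85 in normal skin. Of the tumours 1 was above all skins, and the difference of 0.44 (adjusted p = 0.15) turned to -0.07 without dim probesets. Gbp2 stood at 5.59, 6.19, 6.54, 5.37 and 5.79 in keratoacanthoma, against 5.66, 6.13 and 6.98 in normal skin. Its difference of -0.30 (95% interval -0.83 to 0.23, adjusted p = 0.41) was the lowest of the 39, and was 0.10 against double transgenic skin alone.

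Enzymes that act on nucleotides rose in 2 of 3 genes. Samhd1, which degrades the deoxynucleotides that retroviruses need, stood at 9.42, 9.29, 9.66, 9.45 and 9.48 in keratoacanthoma, against 8.19, 8.34 and 8.70 in normal skin. The tumours lay close together and above all skins, with a difference of 1.08 (SE 0.11, 2.11-fold, adjusted p = 2.8e-05). Rsad2, or viperin, which makes a chain-terminating nucleotide, rose by 0.83 (adjusted p = 0.014). Cmpk2, the kinase encoded beside Rsad2, stood at 5.12, 4.70, 4.64, 4.68 and 4.51 in keratoacanthoma, against 4.53, 4.70 and 5.06 in normal skin. Its group means lay below 4.88, the 25th percentile of all probeset values in the array where it was lowest. Of its 9 probesets 5 were below that limit in both groups, and the gene's difference was -0.01 (adjusted p = 0.95). The brightest probeset, at 7.63 in keratoacanthoma and 7.58 in normal skin, differed by 0.05.

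Membrane proteins and the receptor chaperone rose in 4 of 4 genes. Rtp4, a chaperone of G protein-coupled receptors, stood at 8.88, 9.56, 9.51, 9.25 and 8.88 in keratoacanthoma, against 7.06, 7.40 and 7.80 in normal skin. All tumours were above all skins, with a difference of 1.77 (SE 0.18, 3.41-fold, adjusted p = 1.9e-05). Ifitm3, which stops viruses from fusing with endosomes, rose by 0.57 (adjusted p = 0.0011) and its relative Ifitm1 by 0.42 (adjusted p = 0.0083), with keratoacanthoma 1 far below the other tumours at 7.58. Ifitm1 differed by 0.39 (adjusted p = 0.057) without the 3 arrays high in hair keratins. Bst2, or tetherin, which holds budding virus at the cell surface, rose by 0.78 (adjusted p = 0.03). This was the least stable call of the 30: the adjusted p was 0.16 with the mean over probesets, and between 0.055 and 0.081 without keratoacanthoma 2, 3 or 4 or normal skin 2 or 4.

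The 3 genes of the PARP family that are among the 39 all rose. Outside the 39, Parp10, at -0.02 (limma adjusted p = 0.92), and Parp11, at -0.10 (adjusted p = 0.78), did not pass the test. Parp12, an RNA-binding mono-ADP-ribosyltransferase, stood at 7.09, 7.91, 7.51, 7.54 and 7.50 in keratoacanthoma, against 5.76, 5.90 and 6.43 in normal skin. The lowest tumour was above the highest skin, and the difference was 1.53 (SE 0.15, 2.89-fold, adjusted p = 2e-05). Its probesets had a median difference of 1.00, and the mean over them gave 1.11 (adjusted p = 1.6e-05). Parp9 rose by 0.91 (adjusted p = 0.0041) and Parp14 by 0.68 (adjusted p = 0.003). Dtx3l, the ubiquitin ligase that works as a pair with Parp9 and is not among the 39, rose by 0.93 (adjusted p = 0.0019).

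Of the remaining 4 genes 2 rose. Ifi44, a cytoplasmic protein of poorly known action, stood at 7.36, 7.49, 7.63, 7.53 and 6.90 in keratoacanthoma, against 5.07, 5.41 and 5.74 in normal skin. Here as well the groups were apart, and the difference of 1.98 (SE 0.17, 3.93-fold, adjusted p = 6e-06) was second to that of Isg15. Xaf1, which binds the apoptosis inhibitor XIAP, rose by 1.02 (adjusted p = 0.00081), with normal skin 6 far above the other skins at 7.33. Ifi35 stood at 6.60, 6.64, 6.59, 6.28 and 5.93 in keratoacanthoma, against 5.43, 6.05 and 6.48 in normal skin, a difference of 0.36 (adjusted p = 0.18). In 4 of its 7 probesets the rise passed the threshold, and the mean over probesets gave 0.64 (adjusted p = 0.00036). Lgals3bp, a secreted glycoprotein, stood at 7.11, 6.79, 6.83, 6.79 and 6.51 in keratoacanthoma, against 6.32, 6.52 and 7.08 in normal skin. Those ranges overlapped, with a difference of 0.17 (adjusted p = 0.52).

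The 39 genes also differed among the tumours. Keratoacanthoma 2 had the highest tumour value in 22 genes and keratoacanthoma 3 in 10, together 82.1% of the 39, where the same 2 tumours were highest in 34.3% of all genes. Keratoacanthoma 5 was lowest in 16 and keratoacanthoma 1 in 13, together 74.4% of the 39 and 42.6% of all genes, and keratoacanthoma 5 was highest in 0. These tumours were picked after their values were seen, so that the shares describe the arrays. Averaged over the 39 genes, the tumours stood at 7.20, 7.60, 7.49, 7.28 and 7.13 and the skins at 6.29 to 6.60. The lowest tumour was thus above the highest skin by more than the skins' own range. The median SD of the 39 genes was 0.27 among the tumours and 0.29 among the skins, where that of all genes was 0.19 among the tumours and 0.26 among the skins.

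The probesets behind the gene values moved mostly upwards, and unevenly. Of the 410, 194 (47.3%) were higher at an adjusted p below 0.05 over all 211507 probesets, where 8.29% of all probesets were. Lower past the threshold were 2 of the 410, where 6.98% of all probesets were. All probesets were higher in 5 genes, namely Ifi44 (9 of 9), Isg15 (3 of 3), Oas1a (4 of 4), Oas1g (1 of 1) and Rtp4 (3 of 3). None was called in 5 others, Cmpk2, Gbp2, Gbp3, Ifit2 and Ifit3. For Ifit3 the 2 probesets differed by 0.25 and -0.34, so that its median joined opposite signs. Of the 4 probesets of Ifit1, 1 stood apart with a difference of 0.22 beside 1.87, 1.94 and 1.94.

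A few probesets departed from the rest of their gene. In Oas3, whose 15 probesets differed by 0.07 to 3.91, the largest was that of probeset 10533214 (adjusted p = 9e-06), and 3 of the 15 were called. The 2 probesets that fell were 10579536 of Bst2, which averaged 8.19 in keratoacanthoma and 9.96 in normal skin, a difference of -1.76 (adjusted p = 0.00066), and 10493573 of Adar, with a difference of -0.45 (adjusted p = 0.04). The other probesets of Bst2 reached 1.26. In Adar 10 of 19 probesets rose. Positions of probesets in the genome were not used here, so that an isoform, an unrelated overlapping transcript and cross-hybridisation cannot be told apart.

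**Figure D3:**
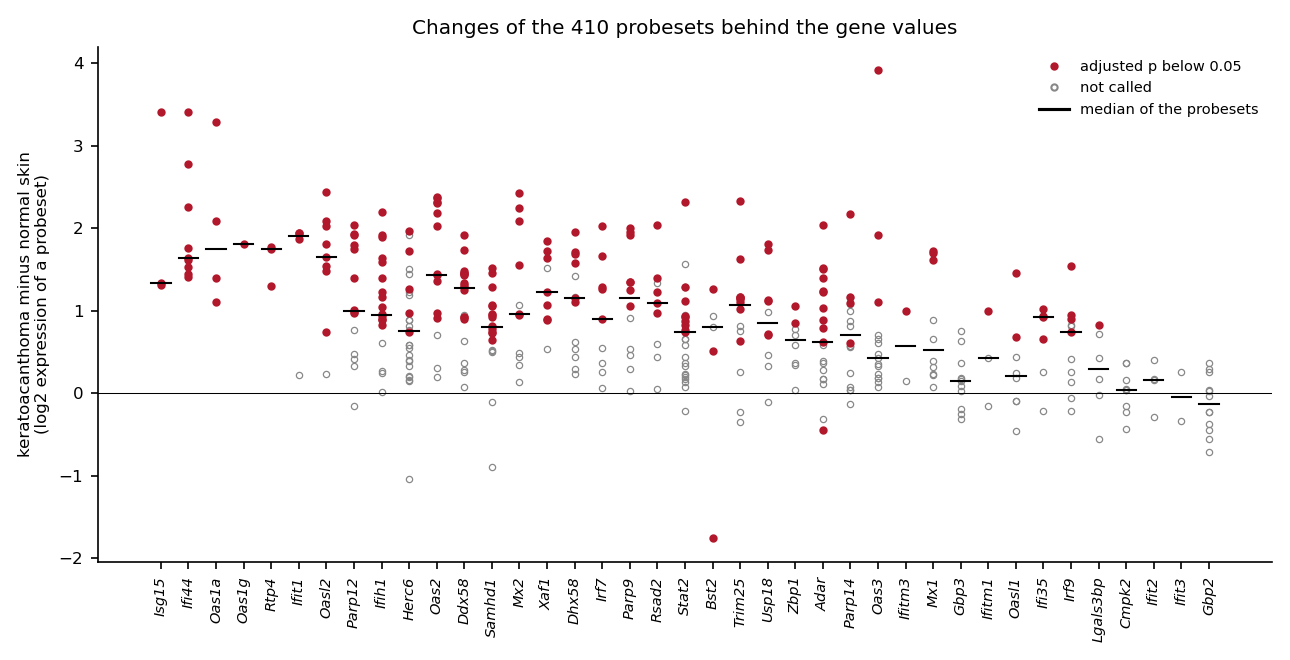
Log2 difference of keratoacanthoma minus normal skin for each of the 410 probesets, in columns by gene and ordered by the gene-level difference, with filled red points for the 196 called and a black line at the median of each gene's probesets. Isg15 shows 2 points near 1.3 and 1 at 3.40, Oas3 has 1 point at 3.91, and the called point of Bst2 at -1.76 is the lowest.

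Against normal skin of the same genotype, which leaves transgene carriage equal on either side, 24 of the 39 genes (61.5%) were higher and 0 lower. Among all genes 10.6% were higher in that comparison. The median log2 difference of the 39 was 0.86, where that of all genes was -0.05. This comparison uses the same tumours and 2 of the 6 skins, so that it is no second experiment. Isg15 differed by 2.31 (adjusted p = 9.8e-05), Ifi44 by 1.72 (adjusted p = 0.00065), Ifih1 by 1.56 (adjusted p = 0.00065) and Parp12 by 1.67 (adjusted p = 0.00077). Past the threshold against all skins and not against these 2 were 6 genes, with Oas3 at 0.53 (adjusted p = 0.14), Zbp1 at 0.63 (0.13), Rsad2 at 0.55 (0.22), Mx2 at 0.34 (0.33), Oasl1 at 0.22 (0.28) and Bst2 at 0.76 (0.15), each p in brackets being adjusted by limma. The count changed with the control arrays, as did that over all genes. Without normal skin 2, 12 of the 39 and 503 of all genes were higher, and without normal skin 1, 21 of the 39 and 2542 of all genes were, against 24 and 2164 with both.

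Carrying both transgenes without a tumour was set against carrying 1. Between normal double and normal single transgenic skin 0 of the 39 genes passed limma's threshold, 4 had an unadjusted p below 0.05, and the smallest adjusted p was 0.28. Among all genes 0.0147% passed in either direction and 10.2% had an unadjusted p below 0.05. The median difference of the 39 was -0.02, and the differences ran from -0.61 to 1.05. Mx2 was at the upper end, with 6.10 and 5.97 in the 2 double transgenic skins, against 5.76 and 5.03 in the skins with K14-Cre only and 4.67 and 4.49 in those with the Zmiz1 transgene only. Both double transgenic skins were above the other 4, with a difference of 1.05 (95% interval 0.53 to 1.57, unadjusted p = 0.00095, adjusted p = 0.28). Mx1 differed by 0.72 (adjusted p = 0.37) and Oas1a by 0.56 (adjusted p = 0.45). Ifih1 went the other way, by -0.52 (adjusted p = 0.43). For Isg15 the difference was 0.22 (95% interval -0.22 to 0.67), against 2.31 between tumour and double transgenic skin.

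**Figure D4:**
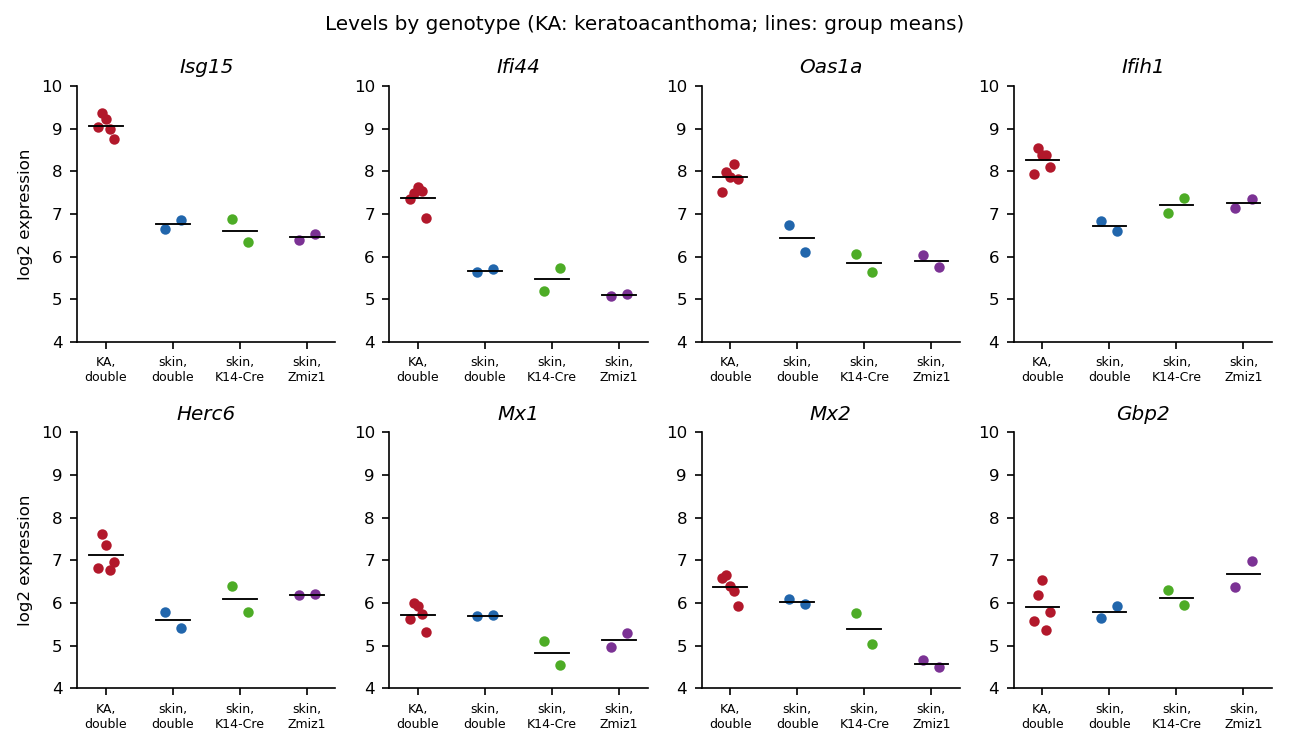
Log2 expression of 8 of the genes by genotype, with keratoacanthoma on the left and normal skin of double transgenic, K14-Cre only and Zmiz1 only mice to its right, 1 point per array and a line at each group's mean. Isg15 is near 9 in the tumours and between 6.33 and 6.89 in all skins, while Mx2 in double transgenic skin (6.10 and 5.97) lies within the range of the tumours.

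None of the measured interferon genes was called higher. Of 21 interferon genes listed 15 were measured, 0 passed limma's threshold in either direction and 2 had an unadjusted p below 0.05, and their median log2 difference was -0.21 where that of all genes was -0.04. Averaged over the list, the tumours stood at 4.86 to 5.04 and the skins at 4.94 to 5.41. In 7 of the 15 the level was below 4.88 in both groups, where a change would be hard to see. That limit is the 25th percentile of all probeset values in the array where it was lowest. Ifnb1, the interferon most cell types make first, averaged 4.14 ± 0.16 (SD, n = 5) in the tumours and 4.10 ± 0.20 (SD, n = 6) in the skins, a difference of 0.04 (95% interval -0.22 to 0.30). Ifnk, made by keratinocytes, differed by -0.21 (adjusted p = 0.47), and Ifng, made by lymphocytes, by -0.03 (adjusted p = 0.88). The smallest adjusted p was that of Ifne, an epithelial interferon, with a difference of -0.40 (adjusted p = 0.12). Against double transgenic skin 1 gene was lower, Ifna12, at -0.94 (adjusted p = 0.02). It is among the 7 low genes, with means of 3.58 in the tumours and 4.52 in the double transgenic skins. Ifnb1 and Ifne are among those 7 as well.

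Between ligand and response, 10 genes of receptors, kinases and a transcription factor were measured. Of these 2 (20.0%) rose and 0 fell, with a median of 0.10, beside the 14.5% of all genes that rose. These were the transcription factor Stat3, by 0.68 (adjusted p = 0.0047), and the kinase Jak2, by 0.46 (adjusted p = 0.013). The type I receptor chains Ifnar1 and Ifnar2 differed by 0.29 (adjusted p = 0.29) and 0.03 (adjusted p = 0.91). With double transgenic skin as the control, 2 of the 10 were higher, where 10.6% of all genes were. They were Ifnar1, by 0.72 (limma adjusted p = 0.021), and Jak2, by 0.57 (adjusted p = 0.015). Ifnar2 differed there by 0.28 (adjusted p = 0.27) and Stat3 by 0.49 (adjusted p = 0.064). Of 18 further sensors and relays 5 (27.8%) rose and 0 fell, with a median of 0.00. Eif2ak2, the kinase PKR that halts translation on double-stranded RNA and is itself interferon-induced, averaged 8.05 ± 0.17 (SD, n = 5) in the tumours and 6.39 ± 0.22 (SD, n = 6) in the skins. Its difference was 1.66 (adjusted p = 1.8e-06), and only Isg15 among the 39 had a smaller p. Myd88, the adaptor of Toll-like and interleukin-1 receptors, rose by 1.27 (adjusted p = 5.6e-05), Sting1, the relay of DNA sensing, by 1.17 (adjusted p = 0.00022), and Aim2, an inflammasome sensor of DNA, by 1.15 (adjusted p = 0.0065).

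Further response genes gave smaller counts, and how they differ from the 39 was not tested. Of 35 other measured genes of the type I response 10 rose (28.6%) and 2 fell (5.71%), with a median of 0.20, where 14.5% of all genes rose and 10.8% fell. Ly6e, a membrane-anchored protein, rose by 1.00 (adjusted p = 8.2e-05), Slfn2, which restrains division in T cells, by 1.11 (adjusted p = 0.00042), and Phf11d by 1.36 (adjusted p = 0.00048). The 2 that fell were Ifi205, at -1.64 (adjusted p = 0.0041), and Ifi27l2a, at -0.92 (adjusted p = 0.0037). Neither passed against double transgenic skin, at -1.21 (limma adjusted p = 0.068) and -0.81 (adjusted p = 0.071). In that comparison 5 of the 35 were higher and 0 lower, where 10.6% of all genes were higher. Of 24 measured genes led by interferon gamma 4 rose (16.7%), a share near that of all genes, and 1 fell (4.17%), with a median of -0.06. Irgm1 rose by 0.89 (adjusted p = 0.0019) and Igtp by 0.77 (adjusted p = 0.012), both GTPases that act on vacuoles of microbes, the chemokine gene Cxcl10 by 0.92 (adjusted p = 0.0021) and the peptide transporter gene Tap1 by 0.46 (adjusted p = 0.032). Ciita, which switches on class II antigen presentation, was at -0.38 (adjusted p = 0.02). Compared with double transgenic skin Ciita was at -0.22 (limma adjusted p = 0.29), and 5 of the 24 were higher and 0 lower.

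Markers of the cells in the tissue differed between tumour and skin as well. Among all genes 14.5% were higher and 10.8% lower at limma's threshold. Markers of basal keratinocytes averaged 9.35 to 9.48 in the tumours and 8.71 to 9.22 in the skins, with 4 of 8 higher and 2 lower. Neutrophil markers rose in 4 of 8 genes, led by the chemokine receptor Cxcr2, which averaged 8.09 ± 0.50 (SD, n = 5) in the tumours and 4.41 ± 0.62 (SD, n = 6) in the skins, and their average was 5.25 to 6.40 in the tumours and 4.46 to 4.96 in the skins. Set against double transgenic skin, 2 of these 8 were higher, where 10.6% of all genes were. Markers shared by all leukocytes passed limma's threshold in 0 of 8 (1 at an unadjusted p below 0.05), at 6.78 to 7.54 in the tumours and 7.07 to 7.84 in the skins. Of macrophage markers 3 of 10 fell, at 5.94 to 6.96 in the tumours and 6.84 to 7.72 in the skins. Of T and natural killer cell markers 2 of 13 (15.4%) fell, a share near that of all genes, at 5.24 to 5.37 in the tumours and 5.39 to 5.74 in the skins. Against double transgenic skin 0 of the 10 macrophage markers were lower. In that comparison 1 of the 13 T and natural killer cell markers was lower, as were 1411 of all 20352 genes. Of markers of plasmacytoid dendritic cells, known as strong makers of type I interferon, 0 of 6 passed (1 at an unadjusted p below 0.05), at 5.89 to 6.08 in the tumours and 5.77 to 6.20 in the skins. Several markers were below 4.88 in both groups, the low limit used for the interferons. These were 4 of the 8 neutrophil, 4 of the 13 T and natural killer cell and 2 of the 6 plasmacytoid dendritic cell markers. Skeletal muscle markers fell in 9 of 9, at 5.44 to 7.27 in the tumours and 10.5 to 11.75 in the skins, as did fat cell markers in 6 of 7 and fibroblast markers in 4 of 7. Hair keratins averaged above 8 in keratoacanthoma 4 and normal skins 1 and 3. Without these 3 arrays 27 of the 39 genes and 2646 of all genes were higher, against 30 and 2959 with all arrays. The part of these cell types in the levels of the 39 genes was not tested.

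**Figure D5:**
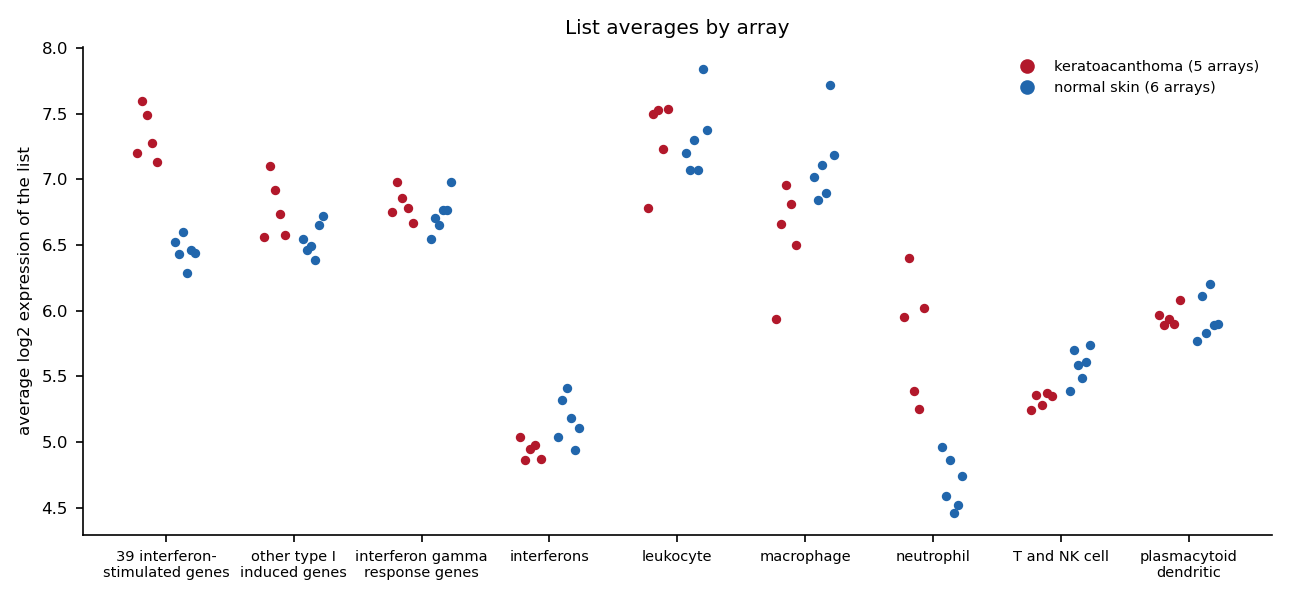
Average log2 expression of the 39 genes and of 8 other gene lists in each array, with keratoacanthoma (5 arrays) in red on the left and normal skin (6 arrays) in blue on the right of each list. Over the 39 genes the tumours (7.13 to 7.60) lie above the skins (6.29 to 6.60), while for the interferons the tumours (4.86 to 5.04) overlap the skins (4.94 to 5.41).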

How the data were processed

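Expression was measured in 5 keratoacanthomas and 6 normal skins on mouse whole-transcript arrays hybridised with amplified, biotin-labelled cDNA, per the labels' protocols. Values deposited by the authors were on the log2 scale, for 241576 probesets. RMA, Partek and genome build mm9 are named per the submitters' processing notes, and their versions and settings were not given in the sources used here. The deposited normalization was kept. Values ran from 0.994 to 15.2, without a stated processing batch.

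Of the probesets, 212097 named 1 gene in the array annotation, 4475 several and 25004 none. Only the first were used, and 590 identical duplicates were dropped, leaving 211507 for 20352 genes. Outdated symbols were updated (2742). Gene values were medians over probesets. The comparisons used limma 3.58.1 in R 4.3.3 (lmFit, eBayes) with Benjamini-Hochberg adjustment over all genes, or over all probesets, at 0.05. Keratoacanthoma and normal skin were 2 groups in 1 fit, and the genotype comparisons used a 4-group fit of all 11 arrays. Exact two-sided permutation tests and tables used Python 3.11.15, pandas 2.3.3, numpy 2.4.6 and scipy 1.17.1, figures matplotlib 3.10.9 and the promoter alignment biopython 1.88. The limma step was tested on simulated data. Promoters came from RefSeq (GRCm38.p6), and no mm9 coordinates are given.

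Every one of the 39 genes is accounted for. Array values are given for Isg15, Irf7, Irf9, Stat2, Usp18, the 10 genes with the smallest p and those not past the threshold. In each pathway list up to 4 genes past the threshold and up to 2 in the opposite direction were named. Mx2, Ifnb1, Ifnk, Ifng, Ifne, the receptor chains, Cxcr2, Oas1b, Oas1c, Parp10, Parp11 and Dtx3l beside Parp9 were added after their values were seen. A further gene named by the rule is not reported here. The 39 genes and all lists were chosen with earlier results of these data known. The alternatives averaged the probesets, left out probesets or genes below the 25th percentile, normalized by quantiles, centred the arrays, used a trended robust eBayes, weighted the arrays, blocked on the title number, took double or single transgenic skin as the only control, and left out each array. The fit without the 3 arrays high in hair keratins was chosen after seeing the data. The number of arrays limits the precision.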

Additional observations from a re-analysis of the deposited data

Results flagged for a closer look

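In 4 of the 78 groups examined (39 genes in tumours and in skins), 1 array stood far from the rest, and chance alone gives about 5% of groups. Xaf1 was at 7.33 in normal skin 6, the highest, where the other skins were at 6.39 to 6.58. Oas3 was at 4.94 in normal skin 5, the lowest, where the other skins were at 5.43 to 5.66. Oasl1 was at 7.20 in keratoacanthoma 4, the highest, where the other tumours were at 6.82 to 6.89. Ifitm1 was at 7.58 in keratoacanthoma 1, the lowest, where the other tumours were at 7.86 to 7.97.

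Probesets that name several genes entered no comparison, and some of them were higher in the tumours. The 8 that name both Oas1a and Oas1g differed on average by 2.01 on the log2 scale. The 2 that name Ifitm1 together with the gene model EG665536 had all tumours above all skins, with differences of 0.91 for probeset 10570435 and 1.15 for probeset 10570436. The 3 probesets that name Ifitm1 alone differed by -0.15, 0.42 and 1.00. Probeset 10439275, which names both Dtx3l and Parp9, differed by 0.01, with overlapping groups.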

How the results depend on the processing

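Of the 30 genes called in keratoacanthoma against normal skin, 21 kept their call under all 22 alternatives, 9 lost it in at least 1 and 0 changed sign. The number called ranged from 23 with normal double transgenic skin as the only control to 32 with the mean over probesets, and from 28 to 31 with 1 array left out. With double transgenic skin as the only control 3186 genes were called over all genes, 1942 of them higher. Centring the arrays put the median of all genes at 0.02, against -0.04 as deposited, with 3485 genes higher and 1677 lower, against 2959 and 2200. The title numbers do not pair the arrays (correlations of deviations -0.181 to 0.103). With them as a replicate block 28 of the 39 genes were called against all skins (2596 of all genes higher). Against normal double transgenic skin the block called 6 of the 39 and 371 of all genes, 177 of these higher and 194 lower. That comparison called 1435 genes in all with array weights, and with 1 array left out 12 to 24 of the 39 and 826 to 4653 over all genes. Between normal double and single transgenic skin 0 of the 39 were called under any setting; over all genes the count was 0 with array weights, the replicate block, no dim genes or no dim probesets, 0 to 346 with 1 array left out, and 215 without the 3 arrays high in hair keratins. Signs turned only in genes that were not called. Cmpk2 was at 0.05 with centring, 0.02 with the mean, 0.12 without the 3 arrays high in hair keratins and -0.11 to 0.05 with 1 array left out. Ifit2 was at 0.09 with array weights, 0.04 with centring, 0.11 with the mean, 0.0046 with single transgenic controls, 0.28 without dim probesets and -0.23 to 0.18 with 1 array left out. Ifit3 was at 0.09 with array weights, 0.02 with centring, 0.06 with single transgenic controls, 0.11 without the 3 arrays and -0.26 to 0.16 with 1 array left out. Against double transgenic skin alone Gbp2 was at 0.10 and Lgals3bp at -0.09, and Gbp3 was at -0.07 without dim probesets. The causes were not tested. Low signal limits what 7 of the 15 interferon genes can show.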
